A study of Mus musculus with 686 samples.

Results

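Subcutaneous adipose tissue (SCAT) of mice that returned alive from the International Space Station (live animal return, LAR) was profiled by small RNA sequencing together with the same depot of ground controls. Members are the libraries labelled SCAT and LAR, 29 of the 686 libraries of the series. All are from female BALB/cAnNTac mice of 3 or 8 months, and each library is 1 mouse. The spaceflight arm (FL, 9 libraries, 5 at 3 months and 4 at 8 months) spent 39.5 days in orbit and was dissected 2 to 4 days after return. The habitat ground control (HGC, 10 libraries, 5 per age) lived in flight hardware at double density with temperature, humidity and carbon dioxide matched to the flight record. The vivarium ground control (VGC, 10 libraries, 5 per age) lived in standard cages. FL vs. HGC therefore compares flight and return at matched housing, FL vs. VGC adds the difference in housing, and effects of flight cannot be told apart from those of landing and the days after it. Libraries are called here by arm and mouse number, for example FL 5.

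Subcutaneous white fat stores lipid under the skin and lies against sheets and bundles of skeletal muscle, the cutaneous muscle among them. Skeletal muscle fibres hold very large amounts of a few miRNAs, the myomiRs of the miR-1, miR-133 and miR-206 families, so a small piece of muscle in a fat sample is visible in its miRNAs. miR-10 and miR-196 genes lie inside the Hox clusters, whose genes are used in order along the body axis, and miR-196a is known from posterior body regions. A mature miRNA recognises its targets mainly through its seed, bases 2 to 8.

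Counts over the 7 RNA classes (miRNA, tRNA, rRNA, snRNA, snoRNA, piRNA, lncRNA) summed to between 30.5 and 163 M per library, with medians of 93.8 M in FL, 86.0 M in HGC and 68.5 M in VGC, and miRNA counts to between 0.554 and 6.69 M. Each library was set against the median profile of every tissue of the series over 730 miRNAs, the muscle miRNAs among them. By this measure, 19 libraries were closest to SCAT and 5 to the gonadal fat (GAT), which were FL 2, FL 4, VGC 3, VGC 11 and VGC 14. The other 5 were closest to a tissue that is not adipose. FL 3 was closest to pancreas, FL 5 to lung, HGC 11 and HGC 16 to diaphragm and VGC 12 to spleen. The 10 libraries not closest to SCAT thus departed from their label, by unequal margins. FL 2 had a correlation of 0.579 with GAT and 0.570 with SCAT, and VGC 14 had 0.649 and 0.606. VGC 3 had 0.804 and 0.451, and VGC 12 had 0.703 with spleen and -0.100 with SCAT. Of the 29 libraries, 8 (FL 3, FL 5, FL 14, HGC 11, HGC 16, VGC 11, VGC 12 and VGC 13) belong to the 11 library pools in which tissues appear to have been mixed up. Results are given with all libraries and, where they rest on them, without the 5 libraries of a non-adipose profile or without the 11 pools. No pair of libraries was identical (0 pairs), and their correlations ran from 0.793 to 0.987.

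The mature sequences below are those of the miRNAs that carry the results, with the seed in capitals. They are taken from RefSeq, with loci on GRCm38.p6, and not from the reads, which the authors mapped to GRCm39. RefSeq entries were found for 33 of the 48 miRNAs that differed between FL and HGC and for 625 of the 766 tested. The pair of muscle miRNAs shown first lie in exons of 1 lncRNA, Gm28653, on chromosome 1.
miR-133b-3p: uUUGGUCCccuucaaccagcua
miR-206-3p: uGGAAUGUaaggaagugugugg
miR-133b-3p is at chr1:20682834-20682855 and miR-206-3p at chr1:20679055-20679076, both on the plus strand. The next sequences are the miRNAs of the Hox clusters.
miR-196a-5p: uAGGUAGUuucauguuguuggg
miR-196b-5p: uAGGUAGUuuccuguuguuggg
miR-196a-2-3p: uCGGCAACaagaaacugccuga
miR-196a-5p is made from Mir196a-1 at chr11:96265187-96265208 and from Mir196a-2 at chr15:102973365-102973386, both on the plus strand, the latter inside Hoxc5 but in none of its exons. miR-196a-2-3p is the other arm of Mir196a-2 (chr15:102973401-102973422). miR-196b-5p lies on the minus strand in an exon of Hoxa9 (chr6:52230129-52230150) and has the same seed, AGGUAGU, as miR-196a-5p. The remaining sequences are those of single miRNAs described further on.
miR-149-5p: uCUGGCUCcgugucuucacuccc
miR-92a-2-5p: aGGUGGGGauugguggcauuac
miR-142a-5p: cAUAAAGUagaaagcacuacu
miR-675-3p: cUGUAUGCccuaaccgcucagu
miR-483-5p: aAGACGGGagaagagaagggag
miR-149-5p lies in an intron of Gpc1, a cell surface proteoglycan (chr1:92850381-92850403, plus strand), miR-92a-2-5p on chromosome X (chrX:52741892-52741913, minus strand) and miR-142a-5p within Mir142hg but outside its exons (chr11:87756867-87756887, plus strand). miR-675-3p is cut from an exon of H19 (chr7:142577078-142577099, minus strand), and miR-483-5p lies in an intron of Igf2 (chr7:142654968-142654989, minus strand), the neighbour of H19 in the same imprinted region.

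In FL vs. HGC, 48 of the 766 miRNAs tested differed at an adjusted p under 0.05 (6.27%), 16 of them higher (2.09%) and 32 lower in FL (4.18%; edgeR quasi-likelihood test with Benjamini-Hochberg adjustment). Over all miRNAs, the median log2 fold change was -0.03, and 162 miRNAs (21.1%) had an unadjusted p under 0.05. Of the 32 lower, 7 were skeletal muscle miRNAs. In bulk tissue, fewer cells of a type and less RNA per cell cannot be told apart. The skeletal muscle list has 10 members, of which 9 were tested (miR-206-5p was too low). In FL, 7 of the 9 were lower, all 9 had a negative log2 fold change, and their median was -2.77.

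Summed over the list, muscle miRNAs took 0.301% of the miRNA counts of the lowest FL library, FL 2, a median of 2.58% and 6.43% in the highest, FL 16. In HGC the sum ran from 9.65% in HGC 5 over a median of 14.1% to 62.6% in HGC 16. In VGC it ran from 0.506% in VGC 12 over a median of 5.58% to 27.0% in VGC 16. Every FL library thus lay below every HGC library, while VGC overlapped both. The mean log2 difference of FL from HGC was -3.32 (SE 0.62, n = 9 and 10). The libraries closest to diaphragm, a muscle, are both in HGC. Without the 5 libraries of a non-adipose profile the HGC sums still ran from 9.65% to 26.2%, above all of FL, and the difference was -3.07 (SE 0.68), or -3.18 (SE 0.79) without the 11 pools. FL and VGC overlapped, with a difference of -1.44 (SE 0.83), or -1.89 (SE 0.86) without the 5 libraries and -2.17 (SE 1.04) without the 11 pools. The sum was in each case below that of HGC on the 3 plates that held both arms, with 4.64% against 15.5%, 2.67% against 11.5% and 2.58% against 33.8%, where each plate had 1 FL library. The last of these HGC values is the median of HGC 11, HGC 14 and HGC 16, of which HGC 14, the one of an adipose profile, held 12.2%. FL 1, FL 2, FL 4 and FL 16 were on plate 6, and FL 3 and FL 5 on plate 4. No HGC library was on either plate, so for these FL libraries arm and plate cannot be told apart. Muscle taken along at dissection and muscle miRNA in the fat itself cannot be told apart here.

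**Figure D1:**
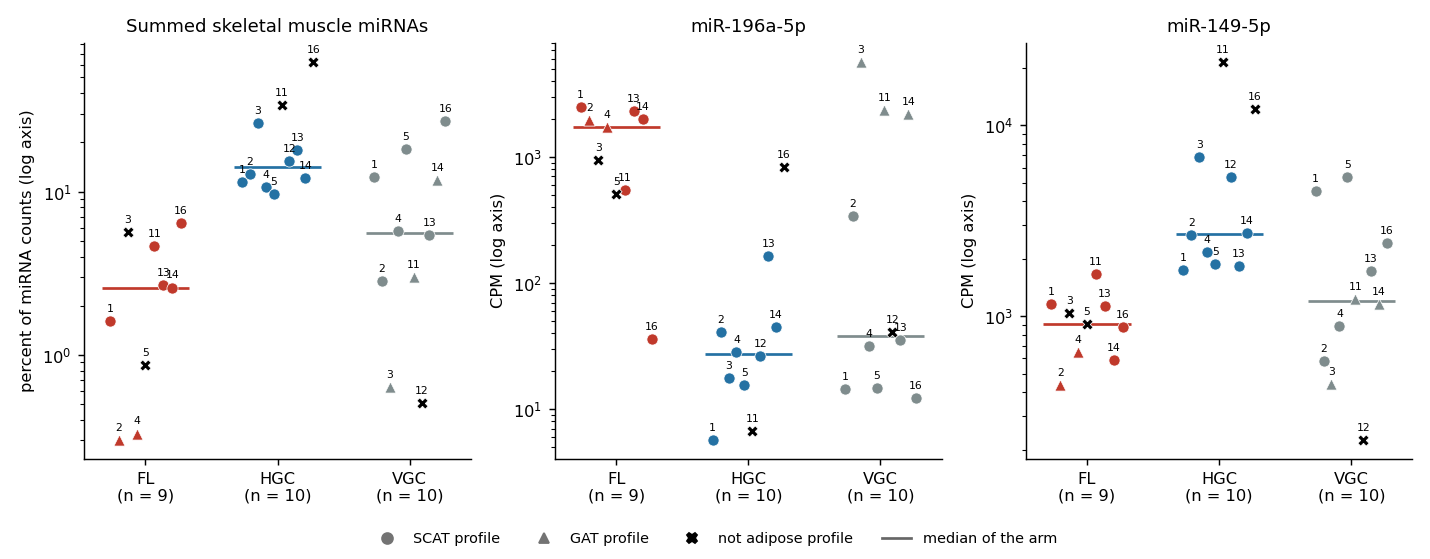
Each point is 1 library, by arm, on log axes; panels show the summed skeletal muscle miRNAs (percent of miRNA counts), miR-196a-5p and miR-149-5p (CPM), the marker shape gives the tissue profile the library is closest to, and the line is the arm's median. All FL libraries lie below all HGC libraries in the muscle sum (at most 6.43% against at least 9.65%) and in miR-149-5p, while in miR-196a-5p FL 16 and HGC 16 cross between the arms and VGC is split.

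Among single muscle miRNAs, miR-133b-3p had the lowest p. Its level ran from 221 over a median of 2397 to 6323 CPM in FL (counts per 1 M miRNA counts, with library sizes scaled by TMM factors), from 9045 over 13922 to 221704 CPM in HGC and from 467 over 5800 to 21781 CPM in VGC. FL and HGC did not overlap, and the highest HGC library was HGC 16. On the log2 scale, the fold change was -4.04 (SE 0.81, adjusted p = 0.00728, edgeR), and -2.94 (adjusted p = 0.0286) without the 5 libraries of a non-adipose profile. Against VGC it was -1.74 and not past the threshold. miR-133a-3p, a near-identical miRNA made from other loci, so that reads may be split between them, ran from 1114 over 16306 to 50135 CPM in FL and from 59028 over 103455 to 1197790 CPM in HGC. It too separated the arms, with a log2 fold change of -3.72 (SE 0.80, adjusted p = 0.0107), and it passes 1 M CPM in HGC 16 because TMM factors rescale the library size. It was -2.69 with an adjusted p of 0.0527 without the 5 libraries.

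miR-206-3p, a skeletal muscle miRNA that heart muscle largely lacks, ran from 45.9 over 1176 to 12790 CPM in FL and from 3587 over 19131 to 154576 CPM in HGC. The arms overlapped, with FL 11 at 4729 CPM and FL 16 at 12790 CPM inside the HGC range. Its log2 fold change was -3.45 (SE 0.89, adjusted p = 0.0280). miR-1a-3p, which heart and skeletal muscle share, was lower by a log2 fold change of -2.57 (SE 0.76, adjusted p = 0.0381), from a median of 15274 CPM in HGC to 1804 in FL. The passenger strands moved with them. miR-133a-5p had -2.70 (adjusted p = 0.0339), miR-1a-1-5p -2.77 (adjusted p = 0.0280) and miR-1a-2-5p -2.35 (adjusted p = 0.0339). miR-499-5p and miR-208b-3p, which come from myosin heavy chain genes of slow and heart muscle, had log2 fold changes of -3.04 and -2.11 and were not past the threshold (adjusted p = 0.0603 and 0.228). With the 5 libraries left out, 1 of the 9 muscle miRNAs was past the threshold (median -2.28), and without the 11 pools 0 of 9 (median -2.13), where edgeR called 1 miRNA of 711 in all.

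miR-149-5p was the third miRNA with no overlap between FL and HGC (3 of 766, 0.392%, all lower in FL). It is no muscle miRNA by any list used here. It ran from 435 over 911 to 1656 CPM in FL, from 1746 over 2698 to 21592 CPM in HGC and from 224 over 1194 to 5381 CPM in VGC. The highest FL library, FL 11, fell just short of the lowest HGC library, HGC 1, and the top of HGC was HGC 11. miR-149-5p had a log2 fold change of -2.65 (SE 0.55, adjusted p = 0.00838), and -1.76 (adjusted p = 0.0557) without the 5 libraries of a non-adipose profile, where HGC reached 6852 CPM. Against VGC it was -0.99 (adjusted p = 0.403). The muscle sum moves with the same arms. With the summed muscle miRNAs as a term in the fit, the log2 fold change of miR-149-5p was -0.21 (adjusted p = 0.969), and since the muscle sum itself separates FL from HGC, that fit cannot tell the arm from the muscle content.

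The 2 Hox miRNAs from Mir196a moved the other way. miR-196a-5p ran from 36.3 over 1735 to 2466 CPM in FL and from 5.71 over 27.5 to 833 CPM in HGC. In FL, 8 of 9 libraries held at least 503 CPM and FL 16 was the low one. In HGC the high one was HGC 16, and the next highest held 164 CPM. The log2 fold change was 3.55 (SE 1.11, adjusted p = 0.0495). Without the 5 libraries of a non-adipose profile, which leaves HGC 16 out, it was 5.18 (SE 1.17, adjusted p = 0.0286). VGC did not form 1 group, since VGC 3, VGC 11 and VGC 14, the libraries closest to gonadal fat, held at least 2173 CPM and the arm's median was 38.0 CPM. The log2 fold change of FL vs. VGC was 0.38 (adjusted p = 0.907). Of the 8 FL libraries with 503 CPM or more, FL 2 and FL 4 are closest to gonadal fat, FL 3 to pancreas, FL 5 to lung and the other 4 to SCAT. The tissue profile rests on miRNAs that differ between tissues, as miR-196a-5p does, so closeness to gonadal fat is not independent of its level.

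miR-196a-2-3p, the other arm of Mir196a-2, was near the limit of detection. It ran from 0.399 over 4.14 to 10.1 CPM in FL, while 7 of the 10 HGC libraries had no count, HGC 16 had 4.25 CPM and the next highest 0.311 CPM. The log2 fold change was 3.84 (SE 1.00, adjusted p = 0.0280), and 5.62 (SE 1.09, adjusted p = 0.0121) without the 5 libraries. In VGC, 6 of 10 libraries had no count and the highest held 9.39 CPM. miR-196b-5p, with the same seed as miR-196a-5p, ran from 177 over 1172 to 1296 CPM in FL and from 41.7 over 207 to 576 CPM in HGC, a log2 fold change of 1.92 that did not pass the threshold (adjusted p = 0.0580). Of the miR-10 genes, which lie at more anterior positions of the Hox clusters, miR-10a-3p was higher in FL (1.07, SE 0.29, adjusted p = 0.0281). miR-10a-5p, miR-10b-5p, miR-10b-3p and miR-615-3p had log2 fold changes of 0.55, 0.30, 0.13 and -0.07 and were not past the threshold. The Hox list holds 7 miRNAs, miR-196a-2-3p not among them, of which 2 were higher in FL, against 2.09% of all miRNAs, 5 did not pass the threshold and the median was 0.55. Only 1 of 7, miR-196a-5p, was higher without the 5 libraries, and 0 of 7 without the 11 pools, where all 7 estimates were positive and that of miR-196a-5p was 5.16 (SE 1.17, adjusted p = 0.0567). The call on miR-10a-3p was the one lost in the first case (0.71, adjusted p = 0.195).

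Among the other miRNAs higher in FL, miR-92a-2-5p had the lowest p, at very low levels. It was found in 8 of 9 FL libraries, with at most 2.85 CPM, in 1 of 10 HGC libraries, HGC 3, with 0.492 CPM, and in 5 of 10 VGC libraries with at most 2.03 CPM (adjusted p = 0.00728 in FL vs. HGC). No fold is given for it, since 9 of 10 HGC libraries had no count. It is made from the X-linked copy of the miR-17-92 clusters, which act in cell growth, together with miR-363-3p, which was also higher (log2 fold change 1.47, adjusted p = 0.0411). miR-363-3p held 52.2 CPM in FL 3, the library closest to pancreas, and at most 17.6 CPM in the other FL libraries. Its value was 0.97 (adjusted p = 0.174) without FL 3, and it lost the threshold in 13 of the 29 fits that left out 1 library. miR-142a-5p, a miRNA of white blood cells, ran from 106 over 590 to 861 CPM in FL, from 58.4 over 153 to 363 CPM in HGC and from 61.9 over 134 to 1249 CPM in VGC. FL 16 again lay low, at the bottom of FL, and the top of VGC was the spleen-like VGC 12. The log2 fold change against HGC was 1.72 (SE 0.52, adjusted p = 0.0411), and 1.86 (adjusted p = 0.0719) without the 5 libraries of a non-adipose profile. miR-342-3p, also abundant in white blood cells, had a log2 fold change of 1.21 (adjusted p = 0.0373), and 0.98 (adjusted p = 0.178) without the 5 libraries.

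Of the 9 miR-467 miRNAs tested, a family within the Sfmbt2 gene that is none of the 15 lists and was grouped after its values were seen, 3 were higher in FL, against 2.09% of all miRNAs. None of the 3 was past the threshold without the 5 libraries or without the 11 pools. The other 6, of which miR-467a-5p and miR-467b-5p hold the same counts, had positive log2 fold changes that were not past the threshold. miR-467e-5p ran from 42.0 over 71.4 to 155 CPM in FL, from 13.4 over 35.8 to 52.4 CPM in HGC and from 16.1 over 26.7 to 93.8 CPM in VGC. FL 1 and FL 5 were the only FL libraries inside the HGC range. Its log2 fold change was 1.30 (SE 0.35, adjusted p = 0.0281), and 1.22 (adjusted p = 0.0702) without the 5 libraries. miR-467e-3p and miR-467c-5p had log2 fold changes of 1.52 and 1.21 (adjusted p = 0.0353 and 0.0373). The reads of this family can be split among near-identical copies, so its members are uncertain as single items.

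A further set of higher calls rested on FL 5, the library closest to lung. miR-34b-5p, a miRNA of ciliated cells and of the p53 response, held 595 CPM in FL 5 and at most 32.0 CPM in the other FL libraries, against 10.7 to 22.7 CPM in HGC. Its log2 fold change was 2.34 (adjusted p = 0.0280) with all libraries and 0.23 without the 5 libraries of a non-adipose profile. miR-34b-3p and miR-34c-5p, from the same transcript, held 670 and 603 CPM in FL 5. Their log2 fold changes were 2.30 and 2.25 (adjusted p = 0.0373 each), and 0.01 and -0.23 without the 5 libraries. miR-6969-3p, named after its values were seen, held 509 CPM in FL 3, the library closest to pancreas, and at most 0.476 CPM in every other FL library.

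miR-675-3p, made from the imprinted gene H19, had no count in 5 of 9 FL libraries and at most 2.40 CPM in the others. HGC ran from 0.458 over 2.51 to 20.5 CPM, with HGC 11 at the top, and 2 of 10 VGC libraries had no count. FL was lower by a log2 fold change of -2.99 (adjusted p = 0.0280), and -2.69 (adjusted p = 0.0557) without the 5 libraries. miR-675-5p, the other arm, had -3.07 (adjusted p = 0.0281). miR-483-5p, from the neighbouring Igf2, ran from 0.762 over 5.599 to 32.3 CPM in FL and from 5.52 over 43.5 to 249 CPM in HGC, with a log2 fold change of -2.73 (adjusted p = 0.0280). These miRNAs of H19 and Igf2 were picked out after their values were seen, except miR-675-3p.

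The Dlk1-Dio3 cluster on chromosome 12 holds the largest imprinted set of mouse miRNAs. Of its 49 members, 43 were tested, 42 of the 43 had a negative log2 fold change in FL vs. HGC, and the median was -0.77 against -0.03 over all miRNAs. Of the 43, 3 passed the threshold, a share close to the 6.27% of all miRNAs. miR-154-5p ran from 52.1 over 64.2 to 87.7 CPM in FL and from 82.0 over 146 to 321 CPM in HGC. Its arms overlapped by a narrow margin, and the log2 fold change was -1.17 (SE 0.31, adjusted p = 0.0280). miR-381-3p and miR-673-5p had -1.81 and -1.60 (adjusted p = 0.0411 each). Without the 5 libraries, 0 of the 43 passed the threshold by edgeR, 42 were again negative, and the median was -0.70. These miRNAs come from 1 long transcript and are not independent of each other.

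miR-378a-3p, made from an intron of Ppargc1b, a regulator of mitochondrial energy use, and abundant in both brown fat and muscle, ran from 13835 over 38704 to 81780 CPM in FL. It ran from 39170 over 89285 to 293974 CPM in HGC, where HGC 2 was the highest, and from 16817 over 55664 to 187443 CPM in VGC. The log2 fold change was -1.34 (SE 0.41, adjusted p = 0.0411), and -1.30 (adjusted p = 0.0846) without the 5 libraries. miR-378a-5p, its other arm, had -1.48 (adjusted p = 0.0339). Both are on the adipocyte list, whose other 7 tested members did not pass the threshold, with a median of -0.09 over the 9. miR-486a-5p and miR-486b-5p, 2 near-identical miRNAs of red blood cells that muscle also makes, had log2 fold changes of -2.17 (SE 0.56) and -2.14 (adjusted p = 0.0280 each). Without HGC 11 they were -1.31 and -1.25, and without the 5 libraries -1.15 and -1.08, not past the threshold in either case. miR-486a-5p ran from 21.0 over 33.5 to 95.0 CPM in FL and from 24.7 over 83.0 to 928 CPM in HGC, where HGC 11 was the highest. miR-486b-3p had -2.50 (adjusted p = 0.0178). miR-3100-5p, of which little is known, was low in every arm, from 0.300 over 0.600 to 3.59 CPM in FL and from 0.858 over 4.88 to 24.2 CPM in HGC, with a log2 fold change of -2.54 (adjusted p = 0.0273). miR-381-5p had -2.46 and lies in the Dlk1-Dio3 cluster, although it is not on the list.

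**Figure D2:**
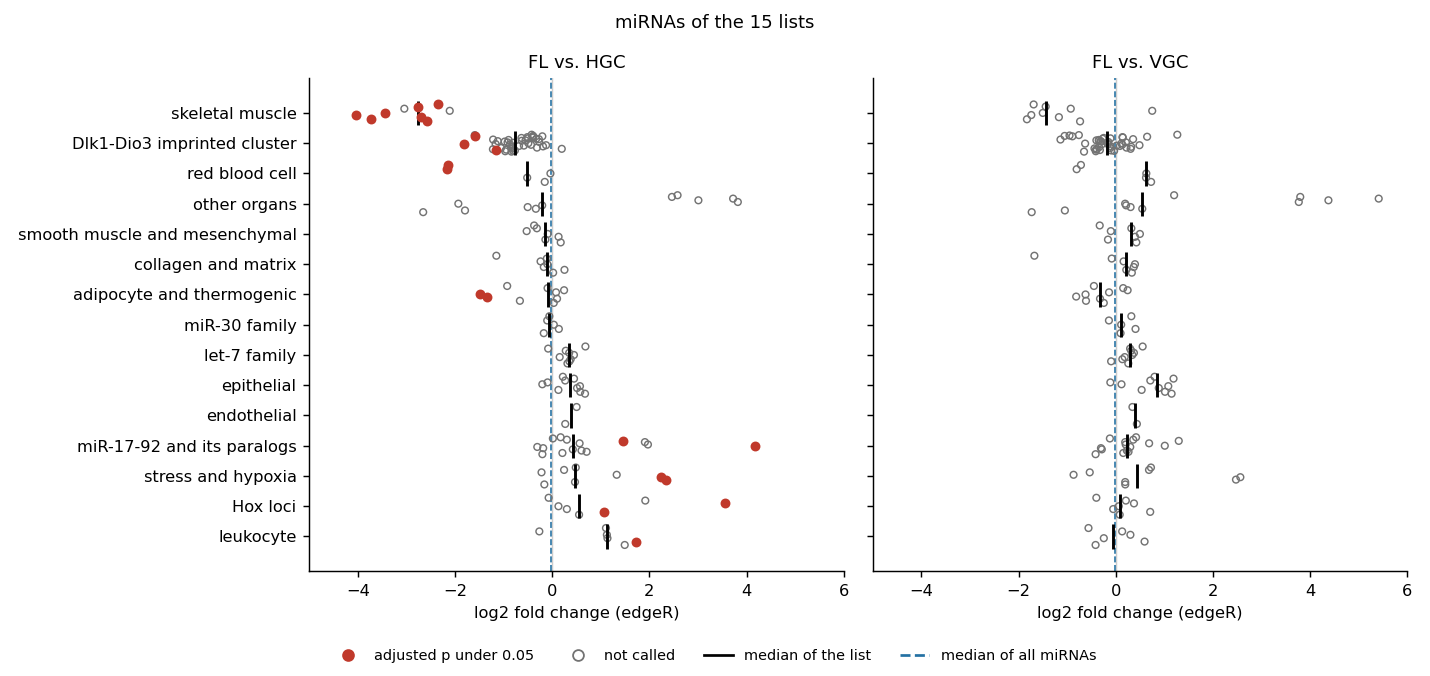
Each point is the log2 fold change of 1 list member in FL vs. HGC and in FL vs. VGC, for the 15 lists, with the members past the threshold marked. Skeletal muscle miRNAs lie furthest to the lower side (median -2.77 in FL vs. HGC and -1.44 in FL vs. VGC), and 42 of the 43 Dlk1-Dio3 miRNAs lie below 0 in FL vs. HGC, around a median of -0.77.

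The leukocyte list had 1 of 6 higher, miR-142a-5p, with a median of 1.13. That call was lost without the 5 libraries and without the 11 pools. The sum of the list took 0.805% over 2.47% to 3.50% of the miRNA counts in FL, 0.260% over 0.746% to 1.46% in HGC and 0.721% over 1.63% to 9.76% in VGC. The miR-17-92 list had 2 of 15 higher (median 0.43), and the stress and hypoxia list 2 of 8 (median 0.48, and 0.11 without the 5 libraries), both of which were miR-34 members that rest on FL 5. The red blood cell list had 2 of 5 lower with a median of -0.51, which became 0.54 with 0 calls without the 5 libraries. In HGC 11, miR-451a, the defining miRNA of red blood cells, reached 157410 CPM, and in FL 5 it reached 67913 CPM. The epithelial list (10 tested, median 0.36), the endothelial list (2, 0.39), the smooth muscle list (7, -0.14), the list of other organs (11, -0.21), the collagen and matrix list (7, -0.11), the let-7 family (9, 0.35) and the miR-30 family (5, -0.06) had 0 calls each. The signs of the smooth muscle, other organ, collagen and miR-30 medians turn when libraries are scaled to the 7-class total in place of TMM factors (0.14, 0.11, 0.21 and 0.18), which also moves the median of all miRNAs to 0.14. That scaling also called 4 of the 11 other organ miRNAs higher in FL vs. HGC and 3 in FL vs. VGC. Leaving out the 5 libraries or the 11 pools turned the epithelial median to -0.11 or -0.20, the latter with 10 of 10 members negative, and moved the other organ median to -0.99 or -0.81. The sum of the other organ list was highest in HGC 4 with 4.71%, VGC 1 with 3.11% and FL 3 with 2.18% of the miRNA counts.

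Among the most abundant miRNAs, let-7c-5p, let-7b-5p, let-7a-5p, let-7d-5p, miR-26a-5p, miR-143-3p, miR-451a and miR-191-5p did not pass the threshold, with log2 fold changes of 0.38, 0.36, 0.31, 0.15, 0.10, 0.18, -0.15 and 0.35. The value of miR-451a was 0.75 without HGC 11. The other 2 of the 10 highest are miR-133a-3p and miR-378a-3p, described above.

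In FL vs. VGC, edgeR called 0 of 766 miRNAs, with 96 (12.5%) at an unadjusted p under 0.05, and DESeq2 and the rank-sum test also called 0. In HGC vs. VGC edgeR called 0, with 100 (13.1%) at an unadjusted p under 0.05, the rank-sum test 0 and DESeq2 8. The median log2 fold change of the muscle miRNAs was -1.44 for FL and 1.89 for HGC, each against VGC. For HGC vs. VGC it was 0.65 without the 5 libraries of a non-adipose profile, which leaves out the diaphragm-like HGC 11 and HGC 16, and 0.41 without the 11 pools. FL vs. HGC and FL vs. VGC share the FL libraries and are not independent. Scaled to the 7-class total, FL vs. VGC had 16 calls (2.09%) and FL vs. HGC 33 (4.31%), of which 24 were among the 48. That scaling moves the median of all miRNAs in FL vs. VGC to 0.36.

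With the summed muscle miRNAs as a term, 8 miRNAs were called in FL vs. HGC, 2 of them among the 48. miR-92a-2-5p kept its call in that fit (adjusted p = 0.0412). miR-196a-5p had a log2 fold change of 3.83 and miR-196a-2-3p one of 2.80 (adjusted p = 0.666 each), miR-486a-5p one of -2.14 (adjusted p = 0.514) and miR-378a-3p one of -0.43 (adjusted p = 0.953). miR-675-3p had -0.65, miR-154-5p -0.83, miR-467e-5p 0.85 and miR-142a-5p 0.35, none of them past the threshold.

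Leaving out the 5 libraries of a non-adipose profile left 4 of 723 calls in FL vs. HGC (0.553%), which were miR-196a-2-3p, miR-133b-3p, miR-196a-5p and miR-92a-2-5p. Of the 48 miRNAs, 45 were tested in that fit, and 44 had the same direction. Without the 11 pools 1 of 711 remained (0.141%), miR-196a-2-3p, and FL vs. VGC had 1 call (0.141%). Single libraries also decided the number of calls. It fell to 4 without HGC 11, to 22 without HGC 16, to 23 without FL 5, to 24 without FL 13 and to 28 without FL 4, and it was 63 without VGC 12. miR-133a-3p, miR-133b-3p, miR-149-5p and miR-92a-2-5p passed the threshold in every one of the 29 fits that left out 1 library. The call on miR-196a-5p passed in 12 of the 29 and that on miR-142a-5p in 13.

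**Figure D3:**
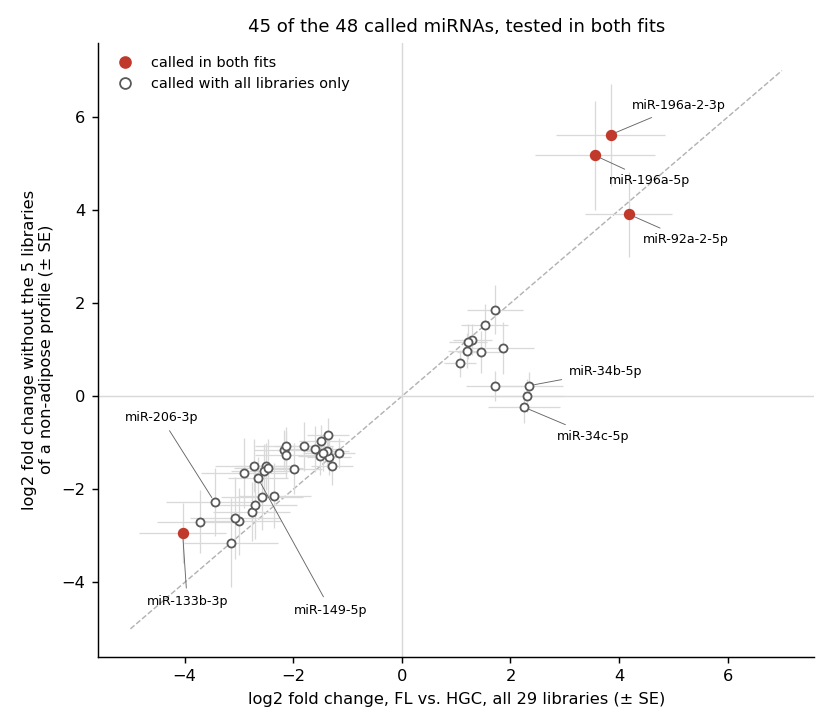
Log2 fold change of FL vs. HGC, with the SE as bars, of 45 of the 48 called miRNAs with all 29 libraries and without the 5 libraries of a non-adipose profile. The miR-34 members move to 0 and the miR-196a members move up (miR-196a-5p from 3.55 to 5.18), while the muscle miRNAs stay negative.

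Fragments of the lncRNAs that host these miRNAs had estimates of the same sign, though edgeR called 0 of 2599 lncRNA transcripts in FL vs. HGC (163, 6.27%, at an unadjusted p under 0.05, and DESeq2 called 3). Of H19 (chr7:142575529-142578143, minus strand, GRCm38), 7 of 7 transcripts had a negative log2 fold change, with a median of -2.72 and a smallest adjusted p of 0.231. In FL vs. VGC the median of H19 was -2.11. Both transcripts of Gm28653, the host of miR-206 and miR-133b (chr1:20669882-20684298, plus strand), were negative with a median of -3.14. Rian, a snoRNA and miRNA host of the Dlk1-Dio3 region, had 54 of 56 negative (median -1.11, smallest adjusted p = 0.417), and its neighbour Mirg 6 of 7 (median -0.99). The median over all lncRNAs was -0.04. Transcripts of 1 gene share reads, and these genes were picked out after their values were seen.

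snoRNAs, which guide chemical marks on other RNAs, showed the widest dependence on the libraries included. With all 29, edgeR called 0 of 735 snoRNAs in FL vs. HGC, with 82 (11.2%) at an unadjusted p under 0.05, and DESeq2 called 8. Without the 5 libraries of a non-adipose profile, 126 of 694 were called (18.2%), 26 higher and 100 lower in FL. Of the 100, 95 lie in Snhg14, the host of the long snoRNA arrays of the imprinted Prader-Willi region (chr7:59307924-59975759, minus strand, GRCm38). Of the 192 snoRNAs tested there, 192 had a negative log2 fold change, with a median of -1.34 against -0.04 over all snoRNAs. In Rian (chr12:109603940-109661716, plus strand), 2 of 7 were lower, and of the 473 snoRNAs elsewhere 27 were called, 26 of them higher. Without the 11 pools the call was made for 115 of 688 (16.7%), 84 of them in Snhg14, with 188 of 192 negative and a median of -1.27.

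The Snhg14 copies are near-identical, and counts are repeated between them. With snoRNAs of identical counts taken as 1, 24 of 533 were called without the 5 libraries (4.50%), of which 13 of 68 tested in Snhg14. The levels were low. Snhg14 snoRNAs took 0.00881% over 0.0108% to 0.0196% of the snoRNA counts in the 7 FL libraries of an adipose profile, and 0.0130% over 0.0318% to 0.0485% in the 8 of HGC. In VGC the 9 libraries ran from 0.00762% over 0.0168% to 0.0469%. FL 3 held 0.0611%, above every other library. With all 29 libraries, 128 of the 194 tested in Snhg14 were negative (median -0.43), and in FL vs. VGC without the 5 libraries the median was -0.45 with 0 calls. The next values are from the fit without the 5 libraries and with identical counts taken as 1. Outside Snhg14, DQ267100, a Rian snoRNA, had the smallest p among those lower (log2 fold change -1.70, adjusted p = 0.0103). Gm24395 had the smallest p among those higher (3.17, adjusted p = 0.0112), followed by Gm25724 (3.45) and Gm23176 (3.42). These snoRNAs were picked out after their values were seen.

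**Figure D4:**
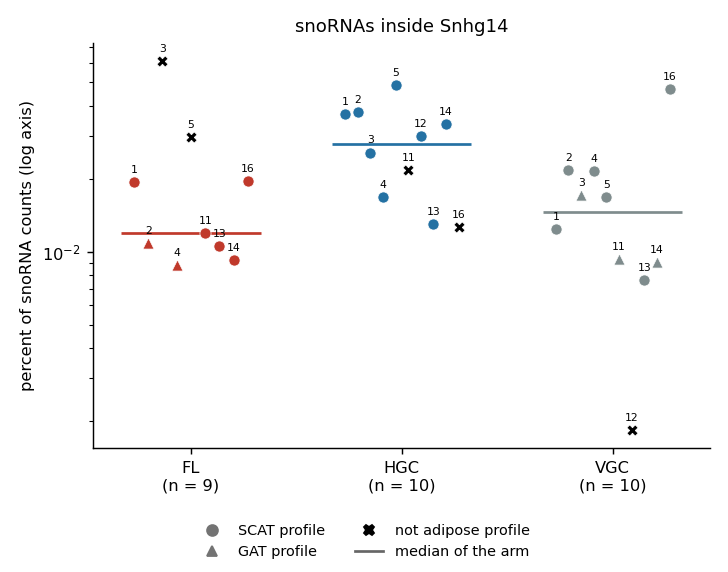
Percent of the snoRNA counts on the Snhg14 snoRNAs in each library, by arm, with the marker shape giving the tissue profile. FL libraries of an adipose profile reach 0.0196% and lie mostly below HGC, and FL 3, closest to pancreas, stands above all at 0.0611%.

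The remaining RNA classes showed few differences. edgeR called 0 of 404 tRNAs, 0 of 219 rRNAs, 0 of 727 snRNAs and 0 of 582 piRNAs in FL vs. HGC, with 58 (14.4%), 10 (4.57%), 26 (3.58%) and 83 (14.3%) at an unadjusted p under 0.05, and DESeq2 also called 0 in each. In FL vs. VGC, edgeR called 0 tRNAs, rRNAs, snRNAs and lncRNAs, with 18 (4.46%), 17 (7.76%), 71 (9.77%) and 330 (12.7%) at an unadjusted p under 0.05, and DESeq2 called 0, 1, 0 and 8. The snoRNA Gm25370 (1 of 735, 0.136%; log2 fold change -4.79, adjusted p = 0.0457) and piR-1095 (1 of 582, 0.172%; -5.48, adjusted p = 0.0111) were lower in FL than in VGC. piR-1095 held 5579 CPM in 1 VGC library and a median of 15.3 CPM in that arm, and Gm25370 35.3 CPM in its highest VGC library and a median of 0.295 CPM. Neither was called without the 5 libraries or without the 11 pools. The share of counts on each class did not pass the threshold in any of 14 exact permutation tests (smallest adjusted p = 0.629, 2-sided, 92378 splits for FL vs. HGC). miRNAs took 4.02% ± 2.06 of the counts in FL (SD, n = 9) and 4.47% ± 2.31 in HGC (SD, n = 10). VGC 12 stood apart with 48.0% of its counts on snRNAs.

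By age, the 3-month mice had 4 calls in FL vs. HGC (0.522%) and the 8-month mice 1 (0.131%), while the difference between the ages had 0 by edgeR and by DESeq2. At 3 months, miR-196a-2-3p, miR-92a-2-5p, miR-34b-5p and miR-679-3p were called at an adjusted p of 0.0411 each. miR-196a-2-3p held 2.79 to 10.1 CPM in the 5 FL libraries of that age and was counted in 1 of 5 HGC libraries, with 0.229 CPM. No fold is given for miR-92a-2-5p, which had no count in these HGC libraries, or for miR-679-3p, which had none in these FL libraries. The log2 fold change of miR-34b-5p, 3.05, rests on FL 5 and was 0.44 (adjusted p = 0.642) without the libraries of a non-adipose profile. At 8 months miR-149-5p was lower (-3.19, adjusted p = 0.0435), and at 3 months it had -1.36. HGC 11 and HGC 16, closest to diaphragm and highest in miR-149-5p, are both 8-month libraries. Without the 5 libraries of a non-adipose profile the 8-month value was -2.17 and no longer past the threshold (adjusted p = 0.634). miR-133b-3p had -2.87 at 3 and -4.30 at 8 months, and miR-196a-5p 5.09 and 2.16, none of them past the threshold. HGC 16 held the highest HGC level of both. The values were -2.68 and -3.26 for miR-133b-3p and 5.31 and 4.98 for miR-196a-5p without the 5 libraries, again not past it. The differences between ages had adjusted p-values of 0.653 for miR-149-5p, 0.884 for miR-133b-3p and 0.820 for miR-196a-5p. In FL vs. VGC, edgeR called 8 miRNAs (1.04%) at 8 months, 5 higher and 3 lower, and 0 at 3 months (69 at an unadjusted p under 0.05), while DESeq2 called 1 at 8 and 2 at 3 months. The 8-month arms include the pancreas-like FL 3 and the spleen-like VGC 12, and edgeR called 0 of 723 at 8 months without the 5 libraries (50 at an unadjusted p under 0.05) and 0 of 711 without the 11 pools (29).

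The ISS-terminated mice (TERM), other animals whose FL arm was killed in orbit and whose carcasses were frozen whole before dissection, gave a second set of 29 SCAT libraries with the same arms. Their stay in orbit was shorter than that of LAR, so duration, landing and dissection all differ between the sets. edgeR called 0 of 743 miRNAs there in FL vs. HGC, and 0 for the difference between LAR and TERM. miR-133b-3p ran from 5695 over 14615 to 28796 CPM in FL of TERM and from 6197 over 20276 to 56717 CPM in HGC, so FL in TERM was at the level of HGC in LAR. Its log2 fold change was -0.75, and the difference from LAR -3.24 (adjusted p = 0.237). miR-149-5p ran from 1174 over 1544 to 5081 CPM in FL of TERM and from 695 over 2147 to 6328 CPM in HGC (log2 fold change -0.45, difference -2.19, adjusted p = 0.237). miR-196a-5p ran from 5.09 over 12.7 to 40.1 CPM in FL of TERM, from 2.21 over 23.7 to 87.0 CPM in HGC and from 0.748 over 12.8 to 213 CPM in VGC. The high levels seen in FL of LAR, with a median of 1584 CPM in the joint scaling of LAR and TERM, thus had no counterpart in any arm of TERM. The difference between LAR and TERM in its log2 fold change was 4.18 (adjusted p = 0.250), and among libraries of an adipose profile 5.90 (SE 1.26, adjusted p = 0.0145), 1 of 2 calls of that fit.

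The other fats of the LAR mice, gonadal (GAT), brown (BAT) and mesenteric (MAT), come from the same animals, and the fit treats the tissues as independent. The FL vs. HGC difference in SCAT departed from that in GAT for 19 of 776 miRNAs (2.45%), from BAT for 21 (2.71%) and from MAT for 1 (0.129%). miR-149-5p was in all 3 sets, with differences of -2.51, -2.49 and -2.73 on the log2 scale. Its FL and HGC medians, in the joint scaling of the 4 fats, were 979 and 2613 CPM in SCAT, 812 and 877 in GAT, 1965 and 2600 in BAT and 670 and 581 in MAT. Without the libraries of a non-adipose profile the 3 differences had adjusted p-values of 0.223, 0.151 and 0.431. miR-378a-3p (-2.39), miR-378b (-2.52), miR-378c (-2.26) and miR-378d (-2.23) also departed from GAT, with counts that may be split among them. Others rest on single libraries, as miR-6969-3p (9.99 against GAT) does on FL 3 and on 1 GAT HGC library with 71.2 CPM, and it was 0.78 (adjusted p = 0.911) without the libraries of a non-adipose profile.

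miR-196a-5p placed the depots far apart. Its FL and HGC medians were 4113 and 2376 CPM in GAT, 5.84 and 4.70 CPM in BAT and 414 and 142 CPM in MAT. The SCAT medians in this scaling, 1637 CPM in FL and 29.3 CPM in HGC, lay between those of MAT and GAT for FL and between those of BAT and MAT for HGC. miR-133b-3p had medians of 610 and 923 CPM in GAT, 12076 and 19689 in BAT and 372 and 260 in MAT. The SCAT medians of miR-133b-3p, 2285 in FL and 13422 in HGC, both lay between those of GAT and BAT. Which piece of the depot was taken from each mouse is not given in the labels.

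**Figure D5:**
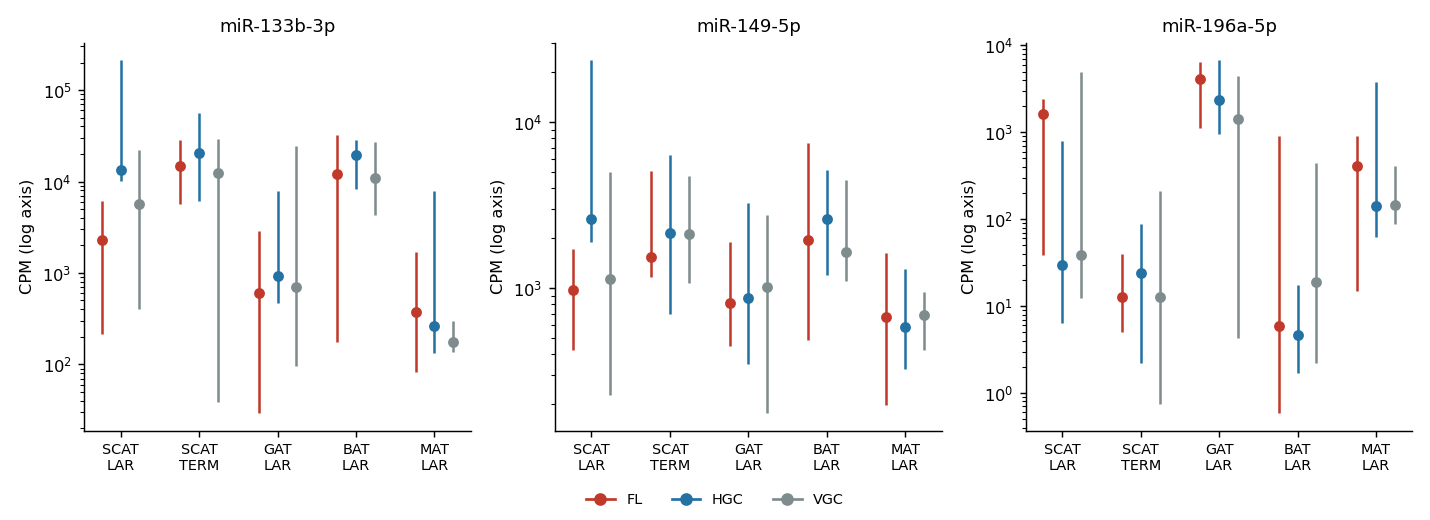
Median with the lowest and highest library of miR-133b-3p, miR-149-5p and miR-196a-5p (CPM, log axis) in FL, HGC and VGC of SCAT from LAR and TERM and of GAT, BAT and MAT from LAR. miR-196a-5p is high in GAT and in FL of SCAT from LAR and its medians are low in every arm of SCAT from TERM and of BAT, where single libraries reach 913 CPM in FL and 448 CPM in VGC of BAT.

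The fold and effect size limits of the study, a log2 ratio of geometric medians beyond 1 and a Cohen's d beyond 0.5, were applied to counts scaled to the 7-class total with 1 added, which is not the scaling or filter the study used. By them, 20 miRNAs were deregulated in FL vs. HGC (2.61%), 7 higher and 13 lower. In FL vs. VGC 15 were (1.96%), 13 higher and 2 lower. Of the 48 called by edgeR, 14 are past the rule. Without the 5 libraries of a non-adipose profile it took 19 (3 higher, 16 lower) in FL vs. HGC and 8 (3 higher, 5 lower) in FL vs. VGC, and without the 11 pools 24 (3 higher, 21 lower) and 16 (2 higher, 14 lower). Scaled to the miRNA counts alone, it took 57 higher and 19 lower in FL vs. HGC and 42 higher and 11 lower in FL vs. VGC. The balance of directions thus changed with the scaling and with the libraries included.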

How the data were processed

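Small RNA reads were processed by the authors with mapping to GRCm39, and the deposited tables hold counts per feature and library for each RNA class, not normalized. The miRNA table holds estimated counts as deposited by the authors, of which 0.790% have a fraction, and these were rounded. The tool used for the classes other than miRNA is not given in the sources used here. tRNA and snoRNA tables count identical copies more than once, so class totals are not numbers of reads. Features with identical counts occur in every class, with 1938 distinct count rows for 5592 counted piRNAs and 7061 for 8659 counted lncRNAs. Columns were taken by their labels, and 29 libraries (9 FL, 10 HGC, 10 VGC) were fitted together with the 3 arms as groups.

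Features with at least 5 counts in at least 10% of the libraries were kept. Each class was scaled with TMM factors and tested with edgeR 4.0.16 (glmQLFit, glmQLFTest, R 4.3.3), with Benjamini-Hochberg adjustment over all features tested and a threshold of 0.05. Levels are TMM-scaled counts per 1 M of the class, as lowest, median and highest library. For edgeR, SE is the size of the log2 fold change over the square root of its F statistic, which approximates the standard error. For the muscle sum it is the standard error of the difference of means. DESeq2 1.42.0, rank-sum tests, other scalings and filters, and leaving out each library were alternatives. Shares of classes were compared by exact permutation tests (scipy 1.17.1). The rpmm of the fold rule are counts per 1 M counts of all 7 classes, with 1 added. Code was tested on simulated data.

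Members, the 15 lists and the comparisons were chosen with earlier results of these data known. List sums and list counts carry no p for that reason, although a permutation test of the muscle sum had been planned. Named were, for FL against each control, the 10 miRNAs with the smallest p higher and the 10 lower among the calls, all muscle and Hox list members, other called list members, the 10 highest miRNAs, 5 in HGC vs. VGC, and 3 higher and 3 lower per other class. Named outside that rule, after their values were seen, were miR-378b, miR-378c, miR-378d, miR-467a-5p, miR-467b-5p, miR-483-5p, miR-675-5p, miR-679-3p and miR-6969-3p, the snoRNAs of Snhg14 and Rian and the host lncRNAs. The mice are separate animals, as each label gives a mouse number. Circular and scaRNA tables were not used here. Depth limits miRNAs near 1 CPM, since the shallowest library holds 0.554 M miRNA counts.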

Additional observations from a re-analysis of the deposited data

Results flagged for a closer look

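Within each arm, the highest or lowest library was compared with its neighbour by the gap between them over the arm's range. Of 213 such groups, 37 held a library set apart by Dixon's 95% limit, where chance gives about 5%. The ratio follows each name.

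In FL, FL 5 (closest to lung) was set apart in miR-34b-5p (0.744), miR-34b-3p (0.806), miR-34c-5p (0.795), the stress list (0.521) and the share of snRNA counts (0.660), and as the lowest in miR-10b-5p (0.6253). FL 3 stood apart in the list of other organs (0.547), and FL 16 as the lowest in miR-196a-5p (0.621).

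In HGC, HGC 11 (closest to diaphragm) was set apart in the share of counts on miRNAs (0.642), rRNAs (0.610) and lncRNAs (0.530), in the red blood cell list (0.729), miR-451a (0.569) and miR-675-3p (0.479), and as the lowest in the share on tRNAs (0.538), in miR-10b-3p (0.646) and in miR-143-3p (0.475). HGC 16 was set apart in miR-133b-3p (0.529) and miR-196a-2-3p (0.837) and was lowest in the endothelial list (0.496). HGC 2 was highest in the adipocyte list (0.485) and lowest in miR-363-3p (0.562), HGC 4 highest in the list of other organs (0.579), HGC 1 lowest in let-7d-5p (0.483), and HGC 3 was the 1 library with miR-92a-2-5p (1).

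In VGC, VGC 12 (closest to spleen) was set apart in the share of snRNA counts (0.903) and the miR-17-92 list (0.667). It was the lowest in the share of tRNA counts (0.603), miR-10b-5p (0.787), miR-10b-3p (0.748), miR-615-3p (0.620), miR-378a-5p (0.607), let-7c-5p (0.601) and let-7b-5p (0.531). VGC 14 was highest in the shares of rRNA (0.494) and lncRNA counts (0.482) and VGC 1 in the list of other organs (0.7003).

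The FL vs. HGC log2 fold change differed between SCAT and another fat, by the test of that difference, for 19 miRNAs against GAT, 21 against BAT and 1 against MAT. miR-149-5p differed by -2.51, -2.49 and -2.73. Against GAT, miR-3100-5p differed by -2.90, miR-378a-3p by -2.39, miR-486b-3p by -3.34 and miR-92a-2-5p by 6.22, which is no reliable size, since its FL and HGC medians in GAT and its HGC median in SCAT were 0 and 1 GAT HGC library held 15.6 CPM. Against BAT, miR-486a-5p differed by -2.93 and miR-486b-5p by -2.88.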

How the results depend on the processing

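The numbers of calls moved with single libraries, with the scaling and with the muscle sum as a term, and the causes were not tested. Over single named miRNAs and all settings run, 3625 values kept their side of the threshold, 355 lost the call, 23 gained one and 7 reversed. A change of sign was counted as a reversal only where a call was made with all libraries or in that setting. Values that changed sign but were called in neither are among the 3625. The 48 calls in FL vs. HGC became 1 without the 11 pools, 4 without the 5 libraries of a non-adipose profile, 90 with only the 2 arms compared, 15 with plate as a term, 8 with the muscle sum as a term and 8 by the rank-sum test. The range was 4 to 63 on leaving out 1 library. The 0 calls in FL vs. VGC became 16 with 7-class scaling, 1 without the pools, 12 with no filter and 1 with the muscle term (0 to 3 on leaving out 1 library). HGC vs. VGC had 8 by DESeq2 (0 to 3).

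In the other classes, 7-class scaling gave FL vs. VGC 6 tRNA, 70 snRNA, 3 snoRNA and 4 piRNA calls, and DESeq2 gave 1 rRNA and 8 lncRNA calls there and 8 snoRNA and 3 lncRNA calls in FL vs. HGC. snoRNA calls in FL vs. HGC were 115 without the pools, 126 without the 5 libraries, 24 with identical snoRNAs also taken as 1, and 4 with the replicate block. The 1 snoRNA call in FL vs. VGC became 0 with filterByExpr, without the pools, without the 5 libraries, with the replicate block and with identical snoRNAs taken as 1, with or without the 5 libraries. piRNA calls were 1 in FL vs. HGC without the 5 libraries, and in FL vs. VGC 3 with filterByExpr, 4 with identical piRNAs as 1, and 0 without the pools, without the 5 libraries (with identical piRNAs as 1 too) and with the replicate block. Leaving out 1 library gave 0 to 7 tRNA, 0 to 1 rRNA, 0 to 30 snRNA, 0 to 10 snoRNA and 0 to 8 piRNA calls in FL vs. VGC, and 0 to 5 snoRNA calls in FL vs. HGC.

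At 3 months, FL vs. HGC had 7 calls with 7-class scaling, 1 without the pools and 20 by DESeq2 (0 to 6 on leaving out 1 library). At 8 months it had 0 with 7-class scaling, without the pools and without the 5 libraries, and 22 by DESeq2 (0 to 5). TERM had 2 without the pools, and the difference between LAR and TERM 1 without the pools and 2 without the non-adipose libraries. Differences from the other fats were 60 (GAT), 12 (BAT) and 6 (MAT) with 7-class scaling, 7 (GAT) and 4 (BAT) without the pools, and 13 (BAT) and 5 (MAT) without the non-adipose libraries. The fold rule took 12 miRNAs in FL vs. HGC with 10 rpmm added, 39 with 0.1 and 76 per 1 M miRNA counts (19 to 25 on leaving out 1 library), and in FL vs. VGC 6, 36 and 53, and 8 without the 5 libraries (6 to 25).

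miR-34b-3p reversed to -0.21 with DESeq2, -0.36 with plate as a term and -0.19 without FL 5 (to 2.46 without FL 13, the range over single libraries), and miR-34c-5p to -0.26 with DESeq2, -0.27 without the pools, -0.23 without the 5 libraries and -0.22 without FL 5 (to 2.40 without FL 16). Mouse numbers are shared between arms but do not pair the mice: same-numbered deviations had median correlations of -0.064, 0.0999 and 0.035 over the 3 pairs of arms, with 1 of 9, 4 of 9 and 3 of 10 over 0.1. With the mouse number as replicate block, FL vs. HGC had 52 calls, 33 of them among the 48.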
